A study of Mus musculus with 6 samples.

Results

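Oligodendrocyte precursor cells (OPCs) of the mouse hypothalamus were examined in single-nucleus RNA sequencing (nucSeq) data, and 551 of 39665 nuclei with at least 1000 unique molecular identifiers (UMIs, the counted RNA molecules) were taken as OPC nuclei. The nuclei were chosen by measured values. Each carried at least 3 UMIs of Pdgfra, Cspg4 and C1ql1 together, at most 2 UMIs of the neuronal genes Snap25, Syt1 and Rbfox3 together, and fewer than 3 UMIs of the myelin genes Mog, Mag, Ermn and Mobp together. The levels of these 10 genes, and of every other gene that sets these nuclei apart from the rest, are therefore descriptions and not findings.

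The hypothalami came from 18 male wild-type C57Bl/6 mice, aged 6 to 8 weeks. Of these, 12 had been fed ad libitum and 6 had been fasted for 16 h overnight. Tissue was pooled by condition, as 2 pools of 6 fed mice and 1 pool of 6 fasted mice, and each pool was sorted into a pair of tubes, giving 4 ad libitum fed and 2 fasted libraries. The labels do not say which fed libraries share a pool. The fasted libraries are tubes of 1 pool, so no spread between fasted pools was measured. Condition, pool and any batch that goes with the pool cannot be told apart.

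OPCs are the dividing glial progenitors that give rise to myelinating oligodendrocytes throughout adult life. They respond to platelet-derived growth factor through the receptor PDGFRα, the product of Pdgfra, and carry the proteoglycan NG2, the product of Cspg4. Transcription factors such as SOX10, OLIG1 and OLIG2 hold the lineage, and Gpr17, Bmp4 and Enpp6 mark cells that leave the precursor state. In the median eminence of the hypothalamus OPCs lie close to the dendrites of neurons that sense metabolic hormones, which is why their state under fasting is of interest.

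The OPC nuclei were unevenly spread over the libraries. Ad libitum fed libraries 1 to 4 held 82, 92, 13 and 15 of them, and fasted libraries 1 and 2 held 157 and 192. Their summed UMIs were 215002, 252771, 50966 and 62183 for the fed mice, against 517236 and 622329 for the fasted mice. The median OPC nucleus carried 2635, 2717, 3722 and 3838 UMIs in the fed libraries, against 3194 and 3166.5 under fasting. Fed libraries 3 and 4 thus had the deepest and by far the fewest OPC nuclei, and a single count there was worth 19.6 and 16.1 CPM (counts scaled to a library total of 1e+06), against 1.93 and 1.61 CPM in the fasted libraries. No cell barcode was shared by OPC nuclei of any of the 15 pairs of libraries.

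Fed libraries 3 and 4 also stood apart in kinds of RNA that are not specific to OPCs. Ribosomal protein genes took 0.421%, 0.438%, 2.10% and 2.13% of the OPC UMIs in fed libraries 1 to 4, and 0.307% and 0.291% in the fasted ones. Mitochondrially encoded genes took 0.136%, 0.116%, 0.479% and 0.450% for the fed mice, against 0.0352% and 0.0283% for the fasted mice. For both kinds of gene the fasted libraries were the lowest and fed libraries 3 and 4 the highest.

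As a share of all nuclei, OPCs made up 0.972% (exact 95% binomial interval 0.774 to 1.20), 1.38% (1.12 to 1.70), 0.204% (0.109 to 0.349) and 0.235% (0.132 to 0.388) in fed libraries 1 to 4. They made up 2.63% (2.24 to 3.07) and 3.27% (2.83 to 3.76) in the fasted libraries. The intervals cover counting error only. Both fasted shares lay above all fed shares, and the intervals of fed libraries 3 and 4 lay below those of fed libraries 1 and 2. The shares in fed libraries 3 and 4 were 0.173% and 0.172%, and those in the fasted libraries 2.53% and 3.18%, without the fibroblast-marked nuclei described below. No test between conditions was made on the shares, since 2 pools and 1 pool give only 3 arrangements for an exact permutation test, which cannot reach 0.05.

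The share of nuclei that were not neuronal differed between the libraries in the same order of groups. Nuclei with at most 2 UMIs of Snap25, Syt1 and Rbfox3 made up 15.3%, 17.1%, 3.27% and 2.79% of the fed libraries and 27.8% and 28.6% of the fasted ones. Among such nuclei OPCs made up 6.36% (5.09 to 7.83), 8.11% (6.59 to 9.86), 6.25% (3.37 to 10.5) and 8.43% (4.79 to 13.5) in the fed libraries, and 9.46% (8.09 to 11.0) and 11.4% (9.95 to 13.1) in the fasted ones. On this scale the fed libraries no longer differed beyond their intervals. The interval of fasted library 1 overlapped those of fed libraries 2, 3 and 4. That of fasted library 2 overlapped those of fed libraries 3 and 4.

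**Figure D1:**
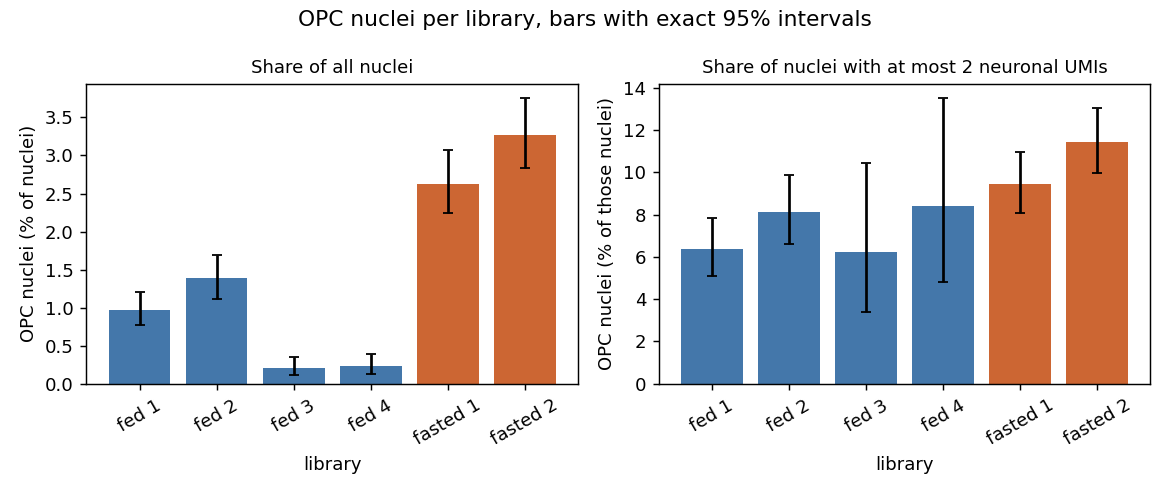
OPC nuclei in each library as a percentage of all nuclei with at least 1000 UMIs (left) and of nuclei with at most 2 neuronal UMIs (right). Bars are single libraries (blue, ad libitum fed; orange, fasted) and lines are exact 95% binomial intervals; the spread of the 4 fed libraries, from 0.204% to 1.38% on the left, narrows to 6.25% to 8.43% on the right.

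Mature oligodendrocytes, set by at least 3 UMIs of the myelin genes and fewer than 3 of the OPC genes, outnumbered OPCs in every library. There were 1.95, 1.49, 1.85 and 2.20 mature oligodendrocytes for each OPC in the fed libraries, against 3.17 and 2.82 under fasting. Within the oligodendrocyte lineage (OPCs, mature oligodendrocytes and nuclei with at least 3 UMIs of Gpr17, Bmp4 and Enpp6 but neither of the other sets) OPCs made up 32.3%, 38.7%, 31.7% and 27.8% of the fed libraries and 23.4% and 25.6% of the fasted ones. Relative to mature oligodendrocytes, OPCs were fewer in both fasted libraries than in any fed library, but this order was lost without the fibroblast-marked nuclei. There were then 2.18 and 3.0 mature oligodendrocytes for each OPC in fed libraries 3 and 4 and 3.29 and 2.90 in the fasted libraries, and the OPC share of the lineage in fed library 4 was 22%, below 22.7% and 25.1% under fasting. A ratio of nuclei from sorted suspensions does not tell a change in OPCs from a change in the cells they are set against.

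The label was checked against 20 OPC identity genes that the rule did not use, among them Olig1, Olig2, Sox10, Vcan, Ptprz1, Lhfpl3, Tnr, Sox6 and Pcdh15. The median member carried 223 UMIs of these genes per 10000 UMIs, against 17.9 in mature oligodendrocytes and 31.1 in astrocytes. The members were of 2 kinds on this measure. In 531 of 551 nuclei the identity genes took more than 100 of 10000 UMIs, 1 nucleus had 98.5, and the other 19 had between 0 and 48.8.

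Those 19 nuclei lay in fed library 3 (4 of 13 members), fed library 4 (5 of 15), fasted library 1 (5 of 157) and fasted library 2 (5 of 192), and none lay in fed libraries 1 and 2. Of the 19, 16 also carried at least 2 UMIs of a list of fibroblast and pericyte genes. Counting every member with at least 2 such UMIs gave 17 nuclei, 0, 0, 2 and 4 in fed libraries 1 to 4 and 6 and 5 in the fasted ones. In these 17 nuclei Dcn (decorin, a collagen-binding proteoglycan of fibroblasts) reached 1605 CPM, with 0 counts in all other members together, and Col1a2 (a chain of type I collagen) reached 838 CPM against 1.80. Both genes are of the list that chose the 17 nuclei, so that these values describe the choice. Pdgfra stood at 1195 CPM in them and at 1325 CPM in the rest, a receptor that fibroblasts also make, while Lhfpl3 stood at 285 against 4812 CPM and Sox10 at 53.5 against 618 CPM. Only 1 of the 17 nuclei had a UMI of Olig1, Olig2 or Sox10, so that all Sox10 counts of the 17 came from it. It lay in fasted library 1 and carried 2 UMIs of the fibroblast and pericyte list. Its level of OPC identity genes was 271 on the scale given above, where the median member had 223. Of the pericyte genes, Rgs5, Kcnj8, Higd1b and Acta2 had no count in any member. Vtn, also of the list that chose the 17 nuclei, stood at 1302 CPM in them against 0.60 CPM in the rest. Over all members the pericyte list, led by Vtn, summed to 14.0, 31.6, 1158 and 434 CPM in the fed and 32.9 and 25.7 CPM in the fasted libraries.

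The label OPC held for all members of fed libraries 1 and 2 and for nearly all fasted members, while 4 of 13 members of fed library 3 and 5 of 15 of fed library 4 were low in the OPC identity genes. The 17 nuclei are called fibroblast-marked below, and values without them are given beside many of the lists and genes described. Leaving them out kept 3 members low in the OPC identity genes. These had levels of 20.8 and 6.40 in fed library 3 and of 48.8 in fed library 4, on the scale given above. In each of these libraries 11 members remained. Values without the fibroblast-marked nuclei are thus not values of OPCs alone there.

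**Figure D2:**
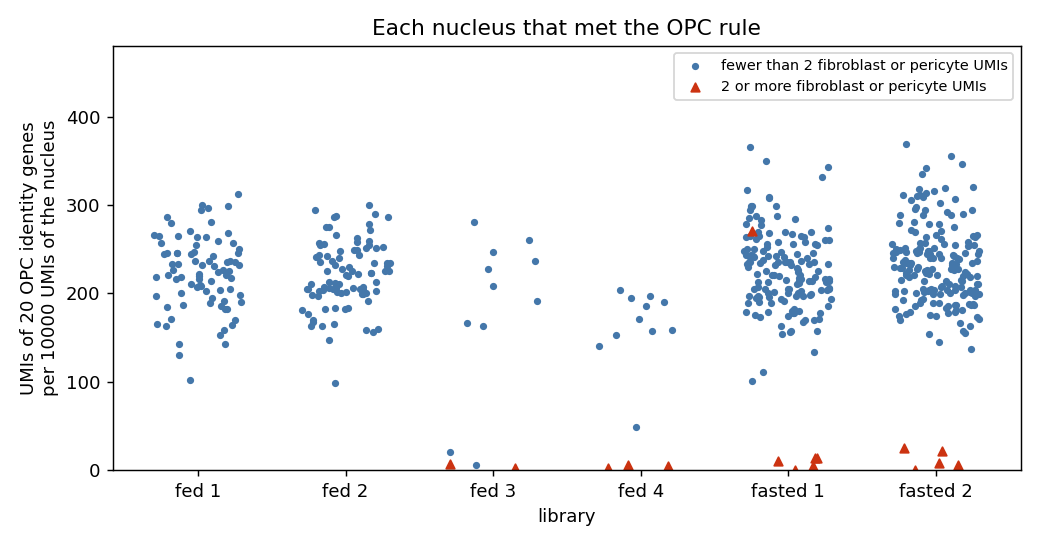
Each point is a nucleus that met the OPC rule, placed by library, with the UMIs of 20 OPC identity genes per 10000 UMIs on the vertical axis. Red triangles have 2 or more UMIs of the fibroblast and pericyte lists; 19 nuclei lie below 50, all in fed libraries 3 and 4 and the fasted libraries, and 531 lie above 100.

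The 3 genes of the rule did not contribute alike. Pdgfra was seen in 534 of the 551 nuclei, Cspg4 in 425 and C1ql1 in 278, and 206 nuclei (37.4%) had a UMI of each. C1ql1 encodes a secreted C1q-like protein. It was found in 36 of 82 and 46 of 92 members in fed libraries 1 and 2 and in 79 of 157 and 93 of 192 in the fasted libraries, but in 12 of 13 and 12 of 15 in fed libraries 3 and 4. Only 67 nuclei entered through Pdgfra alone, 2 through Cspg4 alone and 2 through C1ql1 alone.

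The thresholds were examined through the identity genes as well. The 77 members with exactly 3 marker UMIs had a median of 227 identity UMIs per 10000. By library this median was 227, 225, 6.64 and 6.10 in the fed and 239 and 228 in the fasted libraries. Fed libraries 3 and 4 held only 1 and 3 such members. The 83 nuclei with 2 marker UMIs that met the rest of the rule had a median of 203. By library these 83 nuclei had medians of 212, 223, 5.50 and 3.799 in the fed and 182 and 19.3 in the fasted libraries. In fed libraries 3 and 4 and fasted library 2 the median nucleus just outside was thus low in OPC identity genes. The rule also left out 261 nuclei with at least 3 marker UMIs that had more than 2 neuronal UMIs, at 20, 20, 29 and 43 in the fed libraries, against 56 and 93 under fasting. Their median identity level per 10000 was 215 and 197 after fasting, against 114, 204, 20.9 and 19.6 with food. It was thus close to that of mature oligodendrocytes in fed libraries 3 and 4, between that and the level of members in fed library 1, and nearer to members in the other 3 libraries. The median left-out nucleus of fed libraries 3 and 4 carried 11671 and 12131 UMIs. With up to 5 neuronal UMIs allowed there were 687 OPC nuclei, at 92, 104, 18 and 26 in the fed and 196 and 251 in the fasted libraries. Both fasted shares stayed above all fed shares in that setting.

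Against all other nuclei, the 12 genes with the largest ratio of mean CPM over libraries (plus 10 CPM) were Pdgfra, Cspg4, C1ql1, Ptgds, Arhgap31, Itga9, Igfbp2, Olig1, Sox6, Emid1, Vcan and Neu4. The ratio was 66.1 for Pdgfra and 19.6 for Neu4, a sialidase. Arhgap31 (a GTPase-activating protein, 23.1-fold), Itga9 (an integrin subunit, 22.5-fold), Olig1 (21.8-fold), Sox6 (a transcription factor that holds precursors back from differentiation, 21.4-fold), Emid1 (21.1-fold) and the proteoglycan Vcan (versican, 20.3-fold) lay between them. Emid1, whose product carries a collagen domain, was near 0 in mature oligodendrocytes and astrocytes. It had 260, 372, 235 and 273 CPM in fed and 313 and 262 CPM in fasted OPC nuclei, and at most 3.75 CPM in mature oligodendrocytes and 1.99 CPM in astrocytes of any library. The ratios of Ptgds (prostaglandin D synthase) and Igfbp2 (an insulin-like growth factor binding protein) rested on the fibroblast-marked nuclei. Without these nuclei they went from 26.8 to 0.63 for Ptgds and from 22.3 to 0.88 for Igfbp2, while the others kept ratios of 21.0 to 68.2.

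Genes of commitment were seen in many members, later marks and marks of division in few. Bcas1 had a UMI in 340 of 551 members (61.7%) and in 81.6% of mature oligodendrocytes, and Tcf7l2, a transcription factor of differentiating oligodendrocytes, in 226 (41.0%) and 20.1%. Gpr17, a receptor that appears as OPCs commit to differentiation, had a UMI in 35.8% of members (197 of 551, exact interval 31.7 to 39.9) and in 4.09% of mature oligodendrocytes, but at least 3 UMIs in only 13 members. Enpp6, a mark of newly formed oligodendrocytes, was seen in 3 of 551 members (0.544%) and in 16.4% of mature oligodendrocytes. Bmp4 was seen in 8 members (1.45%) and in 2.08% of mature oligodendrocytes, which is no more than in cells that have passed this stage. The proliferation genes Mki67 or Top2a were seen in 13 members (2.36%, 1.26 to 4.00) and in 2.23% of mature oligodendrocytes, which do not divide. At least 3 UMIs of these 2 genes were found in 6 members, and at least 5 in 4 members and in 0 of 1393 mature oligodendrocytes. These 4 nuclei lay in fed library 2 (2 nuclei) and in each fasted library (1 nucleus each), too few to compare conditions.

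The question of the fasting comparison was whether OPC nuclei of fasted mice differed in gene expression from those of ad libitum fed mice. Counts were summed per pool of mice and tested with edgeR's quasi-likelihood test under each of the 3 ways to place the fed libraries in 2 pools, keeping the largest p. Of 7617 genes tested, none passed an adjusted p (Benjamini-Hochberg) of 0.05 (0.0%). The lowest adjusted p was 1.00, and 77 genes had an unadjusted p under 0.05, as did 171 with DESeq2, which also called 0. The counts depended on the pooling, and with fed libraries 1 and 3 together and 2 and 4 together 516 genes passed. Most of these were lower in the fasted libraries. All genes below are therefore described by their values in each library, with the edgeR log2 fold change and its standard error (SE) from the fit of 2 fed pools and 1 fasted pool, and with an adjusted p of 1.00 by this test for each of them. Both come from the pooling with the largest p. The SE is the size of the log2 fold change divided by the square root of edgeR's F statistic. It holds no spread between fasted pools.

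In 1207 of the 7617 genes (15.8%) both fasted libraries lay above all 4 fed libraries in CPM, and in 497 (6.52%) both lay below. With fibroblast-marked nuclei left out, these numbers were 1140 (15.0%) and 524 (6.88%), with 945 and 419 genes shared. Of the genes in which the libraries did not overlap, 70.8% were higher in the fasted libraries with totals as scale, 63.6% with TMM-scaled totals and 57.3% with DESeq2 size factors. Over all genes 13.3% were higher and 7.60% lower with TMM-scaled totals, and 11.6% and 8.66% with DESeq2 size factors. Of the 1207 genes 307 had no count in fed library 3 or 4, and a gene with no count there could not be lower in the fasted libraries. Against fed libraries 1 and 2 alone, 31.0% of the genes were higher and 18.5% lower in both fasted libraries. The filter (10 counts in 2 libraries) was met through the fasted libraries alone by 2063 genes that reached 10 counts in no fed library, of which 361 were higher and 35 lower. Without these genes and the 3 marker genes of the rule, 844 of 5551 genes (15.2%) were higher and 461 (8.30%) lower. List counts are given below in this way too, as restricted counts, where the number higher or lower differs. The restriction was added after the values were seen. It was not applied to the counts against fed libraries 1 and 2 alone, nor to the shares of all genes beside them.

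The largest gaps upward, by rule with ribosomal protein and mitochondrial genes left out, were those of Gm19439, Mertk, Tubgcp6, Iffo1, Caskin1, Gm37297, Cercam, Sh3rf1, Gnasas1, Prmt8, Kcnip1 and Zcchc14. They were chosen for these gaps, which are a description. For 6 of the 12 (Gm19439, Tubgcp6, Gm37297, Cercam, Gnasas1 and Prmt8) no fed library reached 10 counts, so that they met the filter through the fasted libraries alone.

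Mertk encodes a receptor tyrosine kinase through which glia take up dying cells and synapses. It lies on chromosome 2 (128698956 to 128802894, plus strand, GRCm38). It stood at 55.8, 35.6, 0 and 64.3 CPM in the fed libraries and at 186 and 190 CPM in the fasted ones, a log2 fold change of 2.05 ± 0.63 (SE). Both fasted libraries were well above every fed library, and the fasted values were alike. The fed values rest on 12, 9, 0 and 4 counts. Without the fibroblast-marked nuclei fed library 4 had 24.9 CPM and the fasted libraries 187 and 185 CPM.

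With every nucleus thinned to 1000 UMIs, 3.96% of fed and 16.0% of fasted OPC nuclei kept a Mertk UMI, against 0.0% and 0.289% of mature oligodendrocytes. Unthinned, the shares were 10.9% and 38.7% in OPCs, at a median depth of 3032 UMIs over all members. The higher level in the fasted libraries was thus spread over many nuclei.

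Kcnip1 encodes a Kv channel interacting protein that modulates A-type potassium currents, a current typical of OPCs, and lies on chromosome 11 (33629339 to 33993152, minus strand). It stood at 163, 154, 216 and 145 CPM in fed and at 497 and 429 CPM in fasted libraries (log2 fold change 1.31 ± 0.59). Thinned, 14.4% of fed and 35.5% of fasted OPC nuclei kept a UMI, against 1.69% and 1.83% of mature oligodendrocytes. The level was low and alike in mature oligodendrocytes of both conditions. In the test of the difference between responses given below, Kcnip1 was not called against mature oligodendrocytes or against astrocytes.

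Caskin1, a scaffold protein of synapses, stood at 112, 103, 58.9 and 64.3 CPM in fed and at 253 and 267 CPM in fasted libraries (1.44 ± 0.61). Sh3rf1, a scaffold of the JNK pathway with a ubiquitin ligase domain, stood at 107, 103, 78.5 and 113 CPM against 267 and 247 CPM (1.19 ± 0.58). The fed values were closer together for Sh3rf1 than for Caskin1, and the fasted values of both genes were well above every fed value. Iffo1, an intermediate filament family member of the nucleus, stood at 65.1, 67.3, 58.9 and 32.2 CPM against 166 and 159 CPM (1.37 ± 0.63). Several of the 12 rest on very few counts, as Gm19439, a gene model of no assigned type, with 1 count in all fed libraries together and 20 and 21 in the fasted ones. Gm37297 overlaps Agap1 on the same strand, so that its reads are uncertain.

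**Figure D3:**
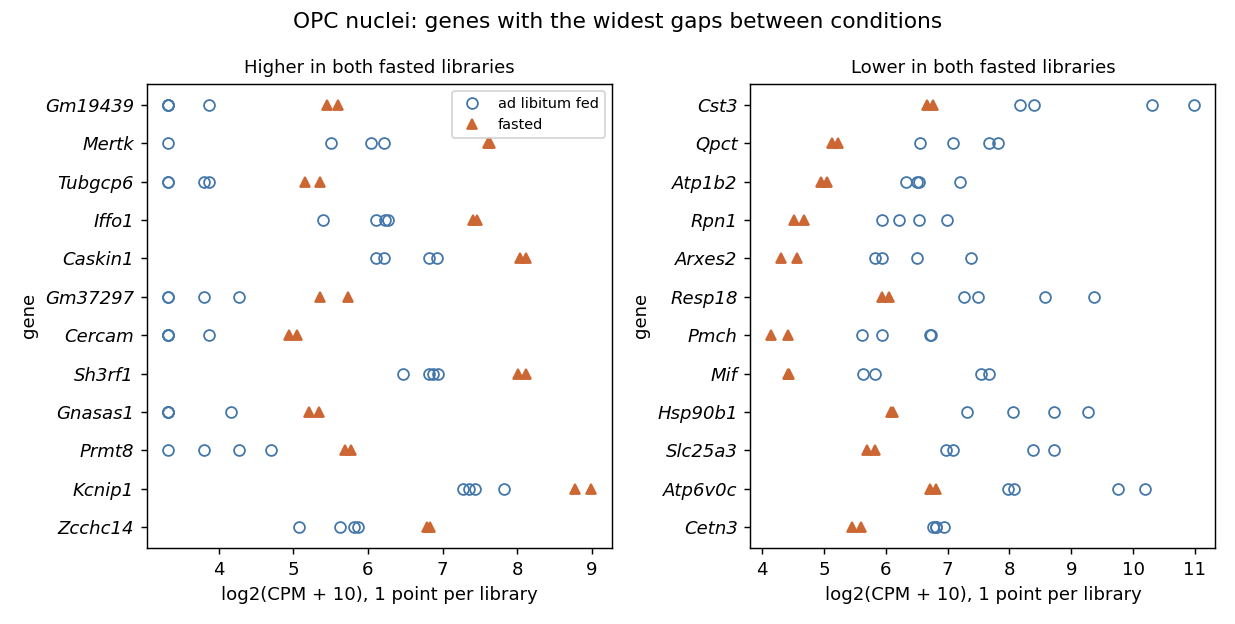
The 12 genes in each direction with the largest gap between the nearer fasted and the nearer fed library, as log2(CPM + 10) in OPC nuclei. Open circles are the 4 ad libitum fed libraries and filled triangles the 2 fasted ones; circles at the left edge of the left panel are libraries with no count, and in both panels no triangle lies among the circles of its gene, which the choice of genes fixes.

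The largest gaps downward were those of Cst3, Qpct, Atp1b2, Rpn1, Arxes2, Resp18, Pmch, Mif, Hsp90b1, Slc25a3, Atp6v0c and Cetn3, chosen in the same way. Cst3 (cystatin C, a secreted protease inhibitor made mainly by astrocytes and microglia) stood at 279, 328, 1256 and 2026 CPM in fed and at 98.6 and 91.6 CPM in fasted libraries (log2 fold change -3.56 ± 1.32). Without the fibroblast-marked nuclei fed libraries 3 and 4 had 934 and 1668 CPM. Fed libraries 3 and 4 were several-fold above fed libraries 1 and 2, which were in turn above the fasted ones. Apart from these, 7 of 7 mitochondrially encoded genes and 39 of 72 ribosomal protein genes were lower in both fasted libraries, and 2 ribosomal protein genes were higher, beside 6.52% lower and 15.8% higher over all genes. For ribosomal protein genes these counts were 40 and 1 without the fibroblast-marked nuclei.

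Hsp90b1, the chaperone GRP94, stood at 149, 257, 412 and 611 CPM in fed and at 58.0 and 59.5 CPM in fasted libraries (-2.78 ± 0.90). Rpn1, a subunit of the oligosaccharyltransferase that glycosylates new proteins, stood at 51.2, 83.1, 118 and 64.3 CPM against 15.5 and 12.9 CPM (-2.58 ± 0.76). The groups did not overlap for either gene, and the fasted libraries differed by little.

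Hsp90b1 was the only one of the 16 genes (of 24 with the largest gaps) matched to a RefSeq promoter, from 250 bases before to 50 bases after the gene start, that held the endoplasmic reticulum stress element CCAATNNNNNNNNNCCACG, searched on both strands (CGTGGNNNNNNNNNATTGG). Of 32851 promoters of the same length 39 (0.119%) held it. The motif was chosen after the genes were seen. The promoter is shown because it held the element in both orientations, in capitals below; a match describes the letters and not a bound site.
Hsp90b1 promoter, chr10:86705395-86705694, minus strand, GRCm38.p6: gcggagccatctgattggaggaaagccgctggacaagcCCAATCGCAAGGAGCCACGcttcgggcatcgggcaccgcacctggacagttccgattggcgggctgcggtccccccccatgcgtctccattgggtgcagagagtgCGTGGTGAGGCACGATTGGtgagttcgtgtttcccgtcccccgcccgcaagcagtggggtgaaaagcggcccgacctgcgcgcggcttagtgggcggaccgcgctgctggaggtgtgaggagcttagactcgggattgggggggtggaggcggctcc

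Pmch, the precursor of melanin-concentrating hormone, a peptide of lateral hypothalamic neurons, stood at 51.2, 94.9, 39.2 and 96.5 CPM in fed and at 7.73 and 11.2 CPM in fasted OPC nuclei (-3.03 ± 0.76). Resp18, a secretory granule protein of neuroendocrine cells, stood at 144, 170, 647 and 370 CPM against 56.1 and 51.4 CPM (-2.75 ± 0.97). Both were also lower in the fasted libraries in mature oligodendrocytes, where Pmch stood at 53.2, 106, 86.5 and 54.8 CPM against 19.4 and 16.2 CPM.

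The whole list of 20 neuropeptide genes, kept as a measure of RNA from other cells, summed to 558, 530, 1315 and 1222 CPM in the fed and to 170 and 156 CPM in the fasted OPC nuclei. Avp (vasopressin) was its most abundant gene, with 74.4, 94.9, 628 and 434 CPM against 32.9 and 25.7 CPM, and Vip was at 0. Of 5 tested genes 3 (Avp, Oxt and Pmch) were lower in both fasted libraries and 0 higher, beside 6.52% and 15.8% of all genes, and 4, with Tac1, were lower without the fibroblast-marked nuclei. The part of such RNA in the other genes that were lower was not tested. The 15 genes of the neuron list summed to 3195, 3236, 6141 and 2798 CPM against 3830 and 3675 CPM, and of its 8 tested genes 2 (Stmn2 and Syp) were lower and 0 higher, beside the same shares of all genes. Snap25, Syt1 and Rbfox3, which the rule held to at most 2 UMIs, belong to this list. Its sum and counts thus depend in part on the selection. The sums of the neuron list overlapped between conditions, and against fed libraries 1 and 2 alone 4 of its genes were higher and 2 lower, beside 31.0% and 18.5%.

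OPC identity genes were higher in the fasted libraries in 8 of 20 tested, at Sox10, Vcan, Sox6, Megf11, Xylt1, Cacng4, Susd5 and Sapcd2, and lower in 1, Ptprz1, beside 15.8% and 6.52% of all genes. With either other scaling 4 of 20 were higher, beside 13.3% (TMM) and 11.6% (DESeq2) of all genes. With fibroblast-marked nuclei left out, 7 were higher and 2 lower, beside 15.0% and 6.88%. Against fed libraries 1 and 2 alone 8 were higher and 3 lower, beside 31.0% and 18.5%. The median log2 fold change was 0.12, against 0.00 over all genes. Sox10 stood at 623, 558, 255 and 209 CPM in fed and at 652 and 632 CPM in fasted libraries, so that its gap to fed library 1 was small. Lhfpl3, the member with the highest CPM, stood at 5274, 4672, 2472 and 1962 CPM against 4627 and 4931 CPM and overlapped. The sum of the list was 22349, 22095, 14480 and 10807 CPM against 22311 and 23007 CPM, and without the fibroblast-marked nuclei the sum in fed libraries 3 and 4 was 17137 and 16531 CPM. OPC identity was close in fed libraries 1 and 2 and in both fasted libraries.

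Genes of commitment to the oligodendrocyte fate were higher in both fasted libraries in 6 of 10 tested (Bcas1, Fyn, Neu4, Nfasc, Tns3 and Zfp488), beside 15.8% of all genes, and lower in none, with a median log2 fold change of 0.74. Under the TMM and DESeq2 scalings 5 and 4 were higher, beside 13.3% and 11.6% of all genes. The restricted count, without Zfp488 (8, 4, 0 and 0 counts in the fed libraries), was 5 of 9 higher, beside 15.2%. Without the fibroblast-marked nuclei 7 were higher, beside 15.0% of all genes, and against fed libraries 1 and 2 alone 8 were higher and 1 lower, beside 31.0% and 18.5%. Bcas1, a marker of early myelinating oligodendrocytes, stood at 372, 356, 275 and 80.4 CPM in fed and at 646 and 535 CPM in fasted libraries (0.98 ± 0.68). Fyn, the kinase that links axonal contact to myelination, stood at 251, 226, 157 and 96.5 CPM against 396 and 321 CPM (0.81 ± 0.64). Neither gene overlapped between conditions. Gpr17 did not follow them, at 181, 170, 137 and 113 CPM against 162 and 145 CPM.

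The sum of the commitment list was 2014, 1895, 1707 and 1544 CPM in fed and 2970 and 2515 CPM in fasted OPC nuclei, and 540, 537, 432 and 437 CPM against 848 and 886 CPM in all other nuclei together. Mature oligodendrocytes, which are among these other nuclei and carry more of the list, had 4229, 3029, 7292 and 6182 CPM against 4390 and 4565 CPM. Astrocytes had 1466, 1389, 1097 and 1162 CPM against 1485 and 1246 CPM. The conditions overlapped within mature oligodendrocytes and within astrocytes, and did not in OPCs or over all other nuclei. The part of RNA from mature oligodendrocytes, which were more frequent in the fasted libraries, in the commitment counts of OPCs was not tested.

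Of mature oligodendrocyte genes not used in the rule, 3 of 14 were tested. Mbp and St18 were higher, but both met the filter through the fasted libraries alone, with 4, 4, 1 and 2 counts of Mbp and 4, 1, 0 and 0 of St18 in the fed libraries, so that no count of this list is read. Mbp, the myelin basic protein, stood at 18.6, 15.8, 19.6 and 32.2 CPM in fed and at 65.7 and 64.3 CPM in fasted OPC nuclei (1.56 ± 0.68). A UMI of it was found in 5.45% of fed and 17.8% of fasted OPC nuclei and in 97.5% and 99.8% of mature oligodendrocytes. Mature oligodendrocytes made up 1.90%, 2.06%, 0.377% and 0.517% of the fed and 8.32% and 9.23% of the fasted libraries. In all other nuclei together the mature oligodendrocyte list summed to 351, 356, 251 and 282 CPM in fed and 1047 and 1191 CPM in fasted libraries. The part of RNA from mature oligodendrocytes in the Mbp counts of OPCs was not tested either.

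Among growth factor receptors and their targets, 9 of 25 tested genes were higher in both fasted libraries (Pdgfra, Erbb4, Igf1r, Etv1, Etv4, Etv5, Pik3r1, Spred1 and Spry2) and 0 were lower, beside 15.8% and 6.52% of all genes. Under either other scaling 6 were higher, beside 13.3% (TMM) and 11.6% (DESeq2) of all genes. With DESeq2 size factors 2 were lower, beside 8.66%. Pdgfra is a gene of the rule, so that its level is no finding, and the restricted count was 8 of 22 higher and 0 lower, beside 15.2% and 8.30%. With fibroblast-marked nuclei left out, 8 were higher and 1, Spry1, was lower. Against fed libraries 1 and 2 alone 9 of 25 were higher and 3 lower, near the 31.0% and 18.5% of all genes. Etv4, a transcription factor induced by receptor tyrosine kinases, stood at 321, 257, 98.1 and 241 CPM in fed and at 485 and 514 CPM in fasted libraries (0.95 ± 0.62). Pik3r1, the regulatory subunit of phosphoinositide 3-kinase, stood at 344, 261, 118 and 129 CPM against 416 and 403 CPM (0.78 ± 0.69). Insr, the insulin receptor, overlapped, at 126, 119, 118 and 161 CPM against 114 and 135 CPM.

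Genes that restrain differentiation through BMP, Notch and Wnt signals gave 4 of 17 higher (Bmpr1a, Smad1, Tcf4 and Tcf7l1) and 0 lower, beside 15.8% and 6.52% of all genes. With TMM scaling 2 were higher and 0 lower, beside 13.3% and 7.60% of all genes. With DESeq2 size factors 1 was higher and 1 lower, beside 11.6% and 8.66%. The restricted count, without Tcf7l1, was 3 of 14 higher. Set against fed libraries 1 and 2 alone 6 were higher and 4 lower, beside 31.0% and 18.5% of all genes, the Notch targets Hes1 and Hes5 among the lower ones. Hes1 stood at 158, 178, 78.5 and 129 CPM in fed and at 88.9 and 78.7 CPM in fasted libraries, and Hes5 at 144, 154, 98.1 and 145 CPM against 98.6 and 91.6 CPM, so that both overlapped with fed library 3. Without the fibroblast-marked nuclei Hes1 stood at 158, 178, 93.4 and 174 CPM against 81.5 and 80.3 CPM and no longer overlapped. In this setting 1 gene of the list, Hes1, was lower. The higher genes were then 3, Smad1, Tcf4 and Bmpr2, while Bmpr1a and Tcf7l1 overlapped.

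OPCs receive synaptic input, and most transmitter receptor genes overlapped between conditions. Of 14 glutamate receptor genes 2 (Grik4 and Grin3a) were higher and 0 lower (2 and 1 without the fibroblast-marked nuclei), beside 15.8% and 6.52% of all genes. Set against fed libraries 1 and 2 alone 4 were higher and 5 lower, beside 31.0% and 18.5%, and the sum of the list was 8088, 8134, 5847 and 4165 CPM against 7731 and 7629 CPM. Gria2, an AMPA receptor subunit, stood at 1577, 1733, 1216 and 804 CPM in fed and 1726 and 1763 CPM in fasted libraries. Among 20 tested potassium, sodium and calcium channel genes 7 were higher and 0 lower, beside 15.8% and 6.52% of all genes, including Cacng4 at 577, 447, 530 and 386 CPM against 692 and 668 CPM. The restricted count, without Kcna1, was 6 of 17 higher. Under either other scaling 7 were higher and 1 lower, beside 13.3% and 7.60% (TMM) or 11.6% and 8.66% (DESeq2) of all genes. Against fed libraries 1 and 2 alone 8 were higher and 2 lower, beside 31.0% and 18.5% of all genes. In the list of matrix and adhesion genes 13 of 31 were higher and 1 lower, beside 15.8% and 6.52% of all genes, with 9 higher under either other scaling, beside 13.3% (TMM) and 11.6% (DESeq2). Cspg4, a gene of the rule, is among the 13, and the restricted count was 12 of 30 higher and 1 lower. Set against fed libraries 1 and 2 alone, 14 were higher and 5 lower, beside 31.0% and 18.5%. Lsamp, its member with the highest CPM, stood at 9242, 8696, 6691 and 4406 CPM against 9390 and 9170 CPM and overlapped. With fibroblast-marked nuclei left out, 6 channel genes and 12 matrix genes were higher.

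**Figure D4:**
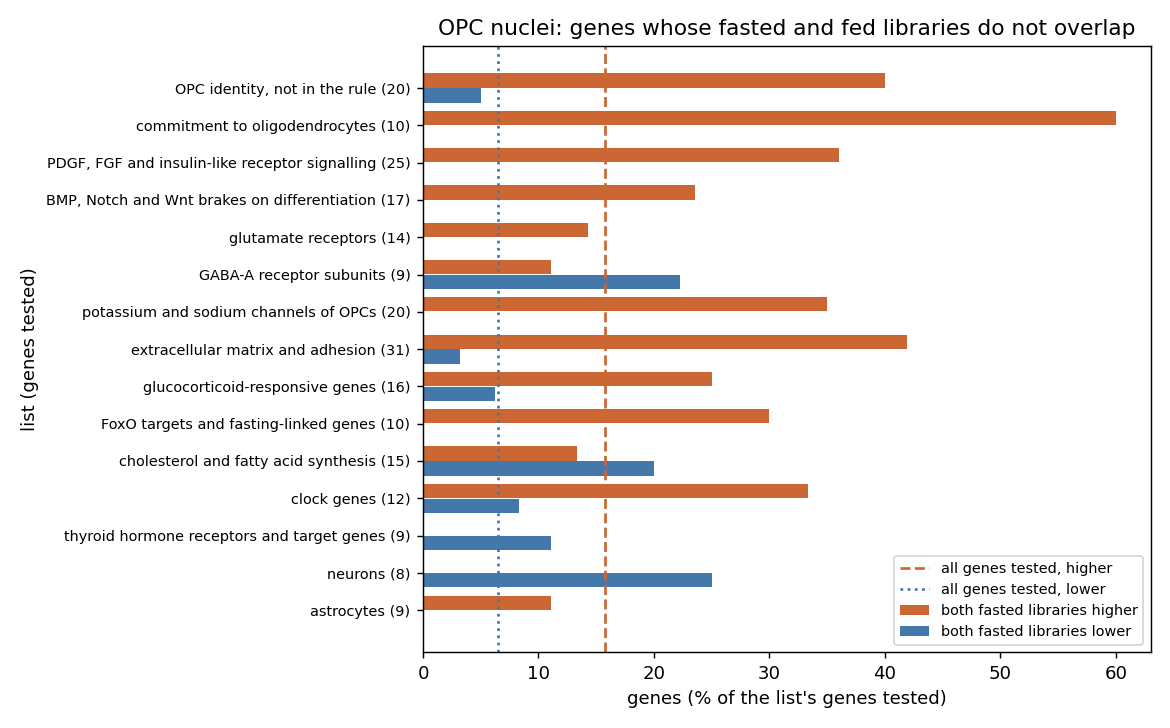
Percentage of the tested genes of each list (number in brackets, lists with at least 8 tested genes) in which both fasted libraries were higher (orange) or lower (blue) than all 4 ad libitum fed libraries in OPC nuclei. Vertical lines give the same for all 7617 genes, 15.8% higher and 6.52% lower. The bars are not restricted and include genes that met the filter through the fasted libraries alone. Commitment genes reach 6 of 10 higher (restricted, 5 of 9), and clock genes 4 of 12 (restricted, 1 of 7). With other scalings several lists hold fewer such genes. Pdgfra and Cspg4 of the selection rule are counted in 2 of the lists, and the neuron list holds Snap25, Syt1 and Rbfox3 of the rule.

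Glucocorticoid-responsive genes are of interest because fasting raises corticosterone in mice. Of 16 tested, 4 were higher in both fasted libraries (Mertk, Sgk1, Bcl6 and Hif3a) and 1, Mt1, was lower, beside 15.8% and 6.52% of all genes. The counts were the same under the other scalings, beside 13.3% and 7.60% (TMM) or 11.6% and 8.66% (DESeq2) of all genes. The restricted count, without Hif3a, was 3 of 12 higher and 1 lower, beside 15.2% and 8.30%. Without the fibroblast-marked nuclei they were the same too, with Zbtb16 in place of Bcl6. Sgk1, a kinase induced by corticosteroids, stood at 130, 166, 98.1 and 96.5 CPM in fed and at 193 and 243 CPM in fasted libraries (0.67 ± 0.60). Hif3a had 0, 0, 19.6 and 0 CPM against 29.0 and 20.9 CPM, which in fed library 3 is a single count.

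Against fed libraries 1 and 2 alone, 12 of the 16 were higher in both fasted libraries and 1 was lower, beside 31.0% and 18.5% of all genes. This comparison was added after the values were seen. Of the 16 genes, 4 met the filter through the fasted libraries alone, and Hif3a, Klf9 and Nfkbia of these are among the 12. The count thus depends in part on the filter, and no restricted count is given for it. Fkbp5, a chaperone of the glucocorticoid receptor, stood at 23.3 and 31.6 CPM in fed libraries 1 and 2, at 19.6 and 193 CPM in fed libraries 3 and 4 and at 106 and 119 CPM in the fasted ones. With fibroblast-marked nuclei left out, it stood at 23.3, 31.6, 23.3 and 74.7 CPM against 71.5 and 109.8 CPM, and still overlapped. Zbtb16, a transcription factor, stood at 27.9, 19.8, 98.1 and 209 CPM against 143 and 153 CPM. In the same set of nuclei the fed values of Zbtb16 were 27.9, 19.8, 70.0 and 49.8 CPM and the fasted ones 137 and 139 CPM, so that the groups no longer overlapped.

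FoxO targets and other fasting-linked genes gave 3 of 10 higher (Bcl6, Sesn1 and Trib1) and 0 lower, beside 15.8% and 6.52% of all genes. Under either other scaling 2 were higher, beside 13.3% (TMM) and 11.6% (DESeq2) of all genes, and without the fibroblast-marked nuclei 1 was higher. The restricted count, without Trib1, was 2 of 8. Of 15 genes of cholesterol and fatty acid synthesis 2 (Elovl6 and Fdft1) were higher and 3 (Scd2, Acsl3 and Msmo1) lower, beside 15.8% and 6.52% of all genes. With the other scalings 0 were higher, and 3 (TMM, beside 7.60% of all genes) or 4 (DESeq2, beside 8.66%) were lower. Without the fibroblast-marked nuclei 1 was higher and 3 lower. Scd2, a desaturase, stood at 126, 162, 98.1 and 129 CPM in fed and at 69.6 and 98.0 CPM in fasted libraries, and its nearest values differed by less than the spread of the fed libraries. Clock genes gave 4 of 12 higher (Arntl, Cry1, Per2 and Rora) and 1, Nr1d2, lower, again beside 15.8% and 6.52%, and without the fibroblast-marked nuclei 3 and 0. Arntl, Cry1 and Per2 met the filter through the fasted libraries alone, and the restricted count was 1 of 7 higher and 1 lower. Set against fed libraries 1 and 2 alone 6 were higher and 4 lower, beside 31.0% and 18.5% of all genes, the FoxO list giving 4 and 0 and the cholesterol list 3 and 4. The filter was met through the fasted libraries alone by 5 of 12 clock, 2 of 10 FoxO and 3 of 15 cholesterol genes. No restricted count is given for the comparison with fed libraries 1 and 2. Nr1d2, a repressor of the clock, stood at 65.1, 115, 58.9 and 32.2 CPM against 29.0 and 30.5 CPM, and overlapped without the fibroblast-marked nuclei.

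The remaining lists had few tested genes, and their counts stand beside 15.8% higher and 6.52% lower over all genes. Of 4 tested immediate early genes 1 (Nr4a1, which met the filter through the fasted libraries alone) was higher, and Fosb, Egr2, Egr3, Arc, Npas4 and Atf3 had no count in any OPC nucleus. Of 4 tested cell cycle genes 1 (Diaph3) was higher, and of 9 thyroid hormone genes 1 (Ncor1) was lower. Astrocyte genes gave 1 of 9 higher (Slc1a2) and 0 lower, and their sum was 1163, 949, 1727 and 3184 CPM against 1158 and 1207 CPM. Fibroblast genes, all members included, summed to 0, 7.91, 1413 and 3474 CPM in fed and to 122 and 186 CPM in fasted libraries, led by Ranbp3l, and of 5 tested genes 0 were higher and 0 lower, while 1, Col1a2, was higher without the fibroblast-marked nuclei. Set against fed libraries 1 and 2 alone, with 31.0% higher and 18.5% lower over all genes, the immediate early list gave 3 higher and 0 lower, the cell cycle list 1 and 1, the thyroid hormone list 4 and 1, the astrocyte list 3 and 1 and the fibroblast list 5 and 0. The filter was met through the fasted libraries alone by 2 of 4 immediate early and 2 of 9 thyroid hormone genes. The same held for 2 of 9 astrocyte and 1 of 5 fibroblast genes, and no restricted count is given for this comparison. Of the lists for pericytes and pars tuberalis 1 gene each was tested, with 0 higher and 0 lower. No gene of the endothelial and tanycyte lists passed the filter, and Cldn5 and Ccdc153 were at 0.

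To ask whether the fasting difference in OPCs was unlike that in other glia, the difference between the responses was itself tested in edgeR with the pool as a block. Against mature oligodendrocytes 4 of 7617 genes passed (0.0525%), Aebp1, Rhoj, Vtn and Zbtb16, and against astrocytes 2 (0.0263%), Ranbp3l and Zfhx3. Without the fibroblast-marked nuclei 0 genes passed against mature oligodendrocytes (0.0%, with 162 at an unadjusted p under 0.05) and 1, Zfhx3, against astrocytes (0.0131%).

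Zfhx3, a transcription factor, stood at 88.4, 162, 118 and 129 CPM in fed and at 131 and 153 CPM in fasted OPC nuclei, which overlapped. In astrocytes it stood at 168, 184, 152 and 94.9 CPM in fed and at 730 and 772 CPM in fasted libraries. The fasting response of OPCs was lower than that of astrocytes by a log2 difference of -2.17 ± 0.47 (SE, adjusted p = 0.0213 by edgeR), and by -2.13 ± 0.40 without the fibroblast-marked nuclei (adjusted p = 0.00112). The call did not hold without fed library 1, 2, 3 or 4 or fasted library 1 (adjusted p = 0.0502, 1.00, 0.732, 0.808 and 0.0707 by edgeR), although the difference stayed between -2.41 and -1.80.

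Rhoj, a small GTPase, stood at 51.2, 79.1, 39.2 and 64.3 CPM in fed and 54.1 and 49.8 CPM in fasted OPC nuclei, and at 28.0, 49.7, 7.87 and 0 CPM against 166 and 145 CPM in mature oligodendrocytes. The difference of the responses was -2.998 ± 0.66 (adjusted p = 0.0194) and -2.94 ± 0.62 without the fibroblast-marked nuclei (adjusted p = 0.0881 by edgeR). Zbtb16 stood at 22.4, 31.9, 0 and 0 CPM in fed and at 310 and 270 CPM in fasted mature oligodendrocytes, and its difference went from -2.80 ± 0.65 (adjusted p = 0.0346) to -1.91 ± 0.74 (adjusted p = 1.00) without those nuclei. Without fed library 2, 3 or 4 or fasted library 1, 0 genes passed against mature oligodendrocytes, and 1, Aebp1, passed without fed library 1. Aebp1, Vtn and Ranbp3l stood at 353 and 450, 1040 and 306, and 432 and 740 CPM in OPC nuclei of fed libraries 3 and 4, and Vtn and Ranbp3l had no count there once the fibroblast-marked nuclei were left out.

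Mertk was not called in this test, at a difference of 2.40 ± 0.90 from mature oligodendrocytes and of 0.74 ± 0.51 from astrocytes (adjusted p = 1.00 for both by edgeR). In astrocytes Mertk stood at 205, 232, 168 and 198 CPM in fed and at 487 and 554 CPM in fasted libraries, and in mature oligodendrocytes it was at or below 27.4 CPM in every library. The plot of levels by kind of nuclei shows higher fasted values in both OPCs and astrocytes.

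**Figure D5:**
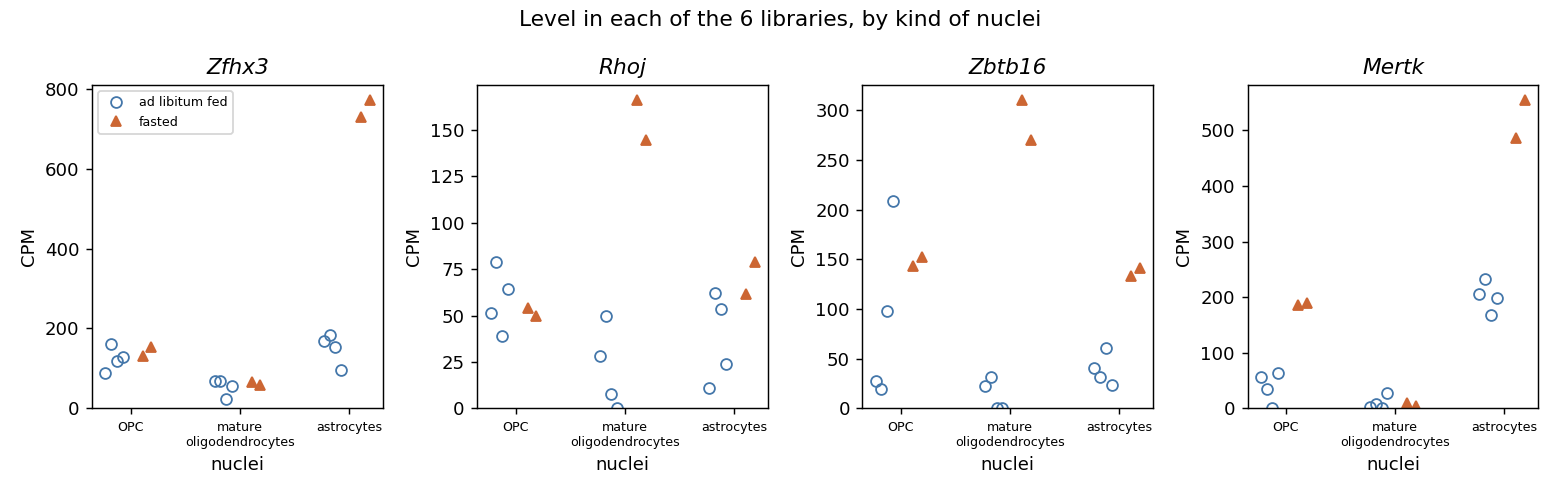
CPM of Zfhx3, Rhoj, Zbtb16 and Mertk in OPC nuclei (fibroblast-marked nuclei included), mature oligodendrocytes and astrocytes. Each point is a library (open circles, ad libitum fed; triangles, fasted); Zfhx3 is high only in fasted astrocytes, Rhoj only in fasted mature oligodendrocytes, and Mertk is higher in fasted than fed libraries in OPCs and astrocytes.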

How the data were processed

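The authors dissociated frozen hypothalami, sorted DRAQ5-stained nuclei, prepared droplet libraries (10x Genomics) and counted UMIs with Cell Ranger 5.0.1 on GRCm38 (mm10). The deposited values are raw UMI counts per gene and nucleus in 6 libraries; 39665 of 39953 barcodes had at least 1000 UMIs.

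OPC nuclei were selected on measured marker UMIs, and their counts were summed per library and per pool. The members, the 25 gene lists and the tests were chosen with earlier results of these data known. A gene entered the test with 10 or more OPC counts in 2 or more libraries, and was fitted with edgeR 4.0.16 (TMM, quasi-likelihood, Benjamini-Hochberg) in R 4.3.3, keeping the largest p over the 3 poolings; DESeq2 1.42.0 was an alternative. The named genes were the up to 4 members of each list with the highest mean CPM, 12 in each direction by the gap on log2(CPM + 10), 12 by ratio to other nuclei and the genes of the rule; other list members are named where a count is small, after their values were seen. The level of 50 identity UMIs and the promoter motif were also chosen after the values were seen. The study tested nuclei as replicates; that was not done here. Nuclei in the top 5% of a simulated-doublet score (scikit-learn 1.9.0) were left out as an alternative, which removed 5 members. Gene positions are from GENCODE vM21 and promoters from RefSeq. Results of some list genes are not reported here. The edgeR fit was tested on simulated data.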

Additional observations from a re-analysis of the deposited data

Results flagged for a closer look

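In 7 of 112 sets of values tested for it (the OPC share and the CPM of named genes), 1 of the 4 ad libitum fed libraries lay far from the other 3; all 7 were genes. Chance gives about 1 in 20 such groups. In fed library 1 these were Gm19439 at 4.65 CPM and Cercam at 4.65 CPM, each a single count where the other fed libraries had none. In fed library 2 they were Gnasas1 at 7.91 CPM, Diaph3 (a formin of the cell cycle list) at 47.5 CPM and Cenpp (a centromere protein) at 59.3 CPM. In fed library 4 they were Grik2 (a kainate receptor subunit) at 257 CPM and the adhesion gene Opcml at 1222 CPM, in which a single count is worth 16.1 CPM.

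In 6 genes the response to fasting differed between OPCs and another kind of glia by edgeR's test of the difference. Against mature oligodendrocytes the log2 response of OPCs was lower, at a difference of -3.51 for Aebp1, -2.998 for Rhoj, -9.90 for Vtn and -2.80 for Zbtb16. Vtn had 0 CPM in all 4 fed libraries of mature oligodendrocytes, so that its difference has no exact size. Against astrocytes the difference was -2.92 for Ranbp3l and -2.17 for Zfhx3. Without the fibroblast-marked nuclei the test called Zfhx3 and none of the other 5. The calls also changed with single libraries left out, as given above.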

How the results depend on the processing

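The count of genes called between fasted and ad libitum fed OPC nuclei was 0 in the comparison as reported. It was 516 with fed libraries 1 and 3 and fed libraries 2 and 4 as pools, 580 with 1 and 4 and 2 and 3, 9 without a filter on counts and 9 with nuclei thinned to 1000 UMIs. The calls under these alternative poolings were mostly lower in the fasted libraries, and those thinned or without a filter were all lower. By CPM in libraries 1 and 2 of both conditions, 2362 genes were higher and 1411 lower in both fasted libraries. With the replicate number as a block, the same libraries gave 128 calls, of which 24 were higher in the fasted libraries. The numbers do not pair the samples (correlation of deviations -0.00 in both pairs, equal by construction with 2 per group), but under the block, which leaves out fed libraries 3 and 4, 21 of the named genes passed in the reported direction, among them Mertk, Kcnip1, Caskin1, Cst3 and Hsp90b1. Ptgds (log2 fold change 2.20) and Nlgn1 (-0.32) passed with the opposite sign. The block takes the tubes of 1 fasted pool as samples. With all 6 libraries as samples, 0 of 7617 genes passed. Genes higher in both fasted libraries (1207) numbered 2152 without a filter, 556 with 0 neuronal UMIs, 545 thinned and 2353 without fed libraries 3 and 4, and 1197 to 1690 with each library left out. Genes lower (497) numbered 882, 130, 127 and 1396 in the same settings, 137 with at least 30 counts, and 632 to 761 with each library left out. The difference in OPC share of 2.25 percentage points was 0.642 with 0 neuronal UMIs, and 2.94 with up to 5. As a share of nuclei with at most 2 neuronal UMIs, another denominator, it was 3.16 percentage points, on means of 7.29% and 10.4% in place of 0.699% and 2.95%. Against mature oligodendrocytes 4 genes differed in response, 0 without the fibroblast-marked nuclei and 0 to 4 with each library left out. Against astrocytes the counts were 2, 1 and 0 to 3. Up to 5 neuronal UMIs, the set without fed libraries 3 and 4, and the alternatives to the tests of response were chosen after the data were seen. The causes of these shifts were not tested, except that fewer genes entered the thinned, stricter and 0-neuronal settings. Of 2484 values of 114 named genes under the alternative settings, 2172 kept their direction and call, 194 uncalled values changed sign and 2 were reversed. The other 116 passed the threshold in the reported direction. Of these, 44 and 47 came under the alternative poolings, 21 under the block, 3 thinned and 1 without a filter. Fed libraries 3 and 4, with 13 and 15 OPC nuclei, limit what depth can show.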
